A study of Mus musculus with 4 samples.

Results

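Expression of 10 genes of RAP1 adhesion signaling was examined in splenic B220+ cells of MIZ-1WT and MIZ-1△POZ mice. The genes were taken as a named list, *Rap1a*, *Rap1b*, *Rapgef1*, *Rapgef6*, *Sipa1*, *Sipa1l1*, *Sipa1l3*, *Rassf5*, *Apbb1ip* and *Evl*, and they are 10 of the 41214 genes of the count table. All 10 passed the filter on low counts, at least 10 counts in at least 2 libraries. The study asked how MIZ-1, a zinc finger transcription factor encoded by *Zbtb17*, controls genes of B cell signaling, and RNA was sequenced from 2 biological replicates of each genotype without stimulation. MIZ-1△POZ mice carry *MB1-Cre* together with the *Miz-1floxPOZ* allele. *MB1-Cre* is driven by the promoter of *Cd79a*, so the POZ domain is removed in cells of the B lineage and a shortened MIZ-1 that keeps its zinc fingers is made there. Cells outside the B lineage keep the full protein, so any that remain after B220 selection are not mutant. The label of the control group is MIZ-1WT, and the sources used here do not state whether these mice carry Cre or floxed alleles. All mouse lines were on a C57BL/6 background and the study used young adults. The sample labels give neither age nor sex.

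RAP1 is a small GTPase that switches between a GTP-bound active and a GDP-bound inactive form. Guanine nucleotide exchange factors (GEFs) load it with GTP, and GTPase activating proteins (GAPs) end the signal. Active RAP1 binds effectors such as RAPL, made from *Rassf5*, and the talin-binding adaptor RIAM, made from *Apbb1ip*. Through its effectors RAP1 acts on integrins from inside the cell and is linked to the actin cytoskeleton. In B cells the pathway is known for adhesion, for movement within lymphoid organs and for spreading and actin remodeling after engagement of the B cell receptor.

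In MIZ-1△POZ, 6 of the 10 genes fell and none rose. The transcripts that fell were those of *Rap1b*, the GEF *Rapgef6*, the GAPs *Sipa1*, *Sipa1l1* and *Sipa1l3*, and the effector *Apbb1ip*, with decreases between 19.2% and 45%. *Rap1a*, *Rapgef1*, *Rassf5* and *Evl* did not pass the test, and their log2 fold changes lay between -0.00 and 0.10. Calls rest on an adjusted p under 0.05 in the quasi-likelihood test of edgeR, and by the same rule 18.9% of the 14554 genes tested were lower, 21.1% were higher and 40% were called in either direction. The median log2 fold change of the 10 genes was -0.32, against -0.01 over all genes tested. The 10 genes were chosen with earlier results of these data known, so setting them beside all genes describes them and does not test them as a set. Both MIZ-1△POZ libraries lay below both MIZ-1WT libraries for 6 of the genes, which was the case for 37.6% of all genes tested. They lay above for *Rapgef1*, as for 37.2% of all genes tested, and overlapped for the other 3.

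**Figure D1:**
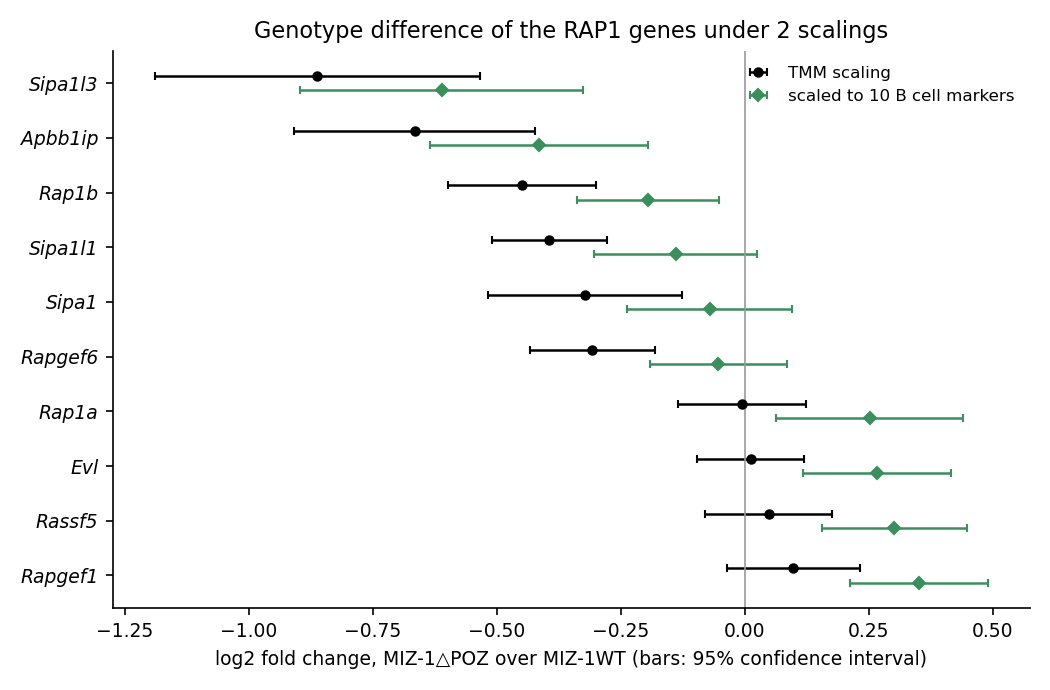
The horizontal axis gives the log2 fold change of MIZ-1△POZ over MIZ-1WT for each of the 10 RAP1 genes, with bars for the 95% confidence interval. Black circles used TMM scaling and green diamonds a scaling to 10 B cell markers. *Sipa1l3*, *Apbb1ip* and *Rap1b* lie below 0 under both, and the bars of *Sipa1*, *Sipa1l1* and *Rapgef6* cross 0 under the second.

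Each library held between 43026814 and 46387209 counts on genes, and log2 CPM (counts scaled to a common library total by TMM) correlated at 0.994 between the MIZ-1WT replicates and at 0.993 between the MIZ-1△POZ replicates, across genes. *Zbtb17* had 2087 and 1946 counts in MIZ-1WT and 1774 and 1669 in MIZ-1△POZ, equal to -0.32 on the log2 scale (adjusted p = 0.00857, edgeR), although counts per gene do not show whether the exons of the POZ domain were lost. *Cd79a*, the locus that drives Cre, had 14668 and 13089 counts in MIZ-1WT and 4891 and 5939 in MIZ-1△POZ (log2 fold change -1.44). *Xist*, transcribed from the inactive X chromosome of females, had 49 and 60 counts in MIZ-1WT and 38145 and 40838 in MIZ-1△POZ, while *Ddx3y* on the Y chromosome had 15840 and 14896 against 680 and 622. Sex and genotype therefore cannot be told apart in any comparison between the groups. The B cell identity of the samples was visible in all libraries, with the 10 B cell markers summing to between 16950 and 19790 CPM. Of these markers 7 fell and none rose, with a median log2 fold change of -0.23. All 16 markers of red pulp macrophages rose, and their summed level was 945 and 1245 CPM in MIZ-1WT and 5478 and 3590 CPM in MIZ-1△POZ replicates 1 and 2. All 8 marginal zone B cell markers also rose, and 3 of the 5 follicular B cell markers tested fell. Among markers of T cells, megakaryocytes, neutrophils, erythroid, dendritic and NK cells, between 1 and 3 of each list rose, and 1 dendritic cell marker fell. Fewer cells of a type and less RNA per cell cannot be told apart in these bulk samples, and the part of cell composition in the differences below was not tested. The p-values of edgeR weigh each difference against the variation between 2 replicates of each genotype, estimated with information shared across genes.

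Levels of different genes were compared as RPKM, CPM divided by the exon length in kilobases. That length joins all annotated exons of a gene. The order and ratios between genes depend on it, and the SD between replicates does not include its uncertainty. In MIZ-1WT, *Sipa1* stood highest at 116 ± 7.18 RPKM (SD, n = 2), followed by *Rap1b* at 88.3 ± 0.455 and *Evl* at 71.7 ± 1.68. A middle group of 4 genes lay close together, with *Rassf5* at 38.1 ± 0.79, *Rap1a* at 37.6 ± 0.406, *Rapgef1* at 36.5 ± 0.515 and *Rapgef6* at 34.3 ± 0.658 RPKM (SD, n = 2). Of the neighbours in this order, *Rassf5* and *Rap1a* overlapped between the replicates and all others were separate. *Sipa1l1* followed at 7.21 ± 0.0398, *Apbb1ip* at 5.62 ± 0.36 and *Sipa1l3* at 1.02 ± 0.0162 RPKM (SD, n = 2). In MIZ-1△POZ the order was kept except for 2 exchanges. *Evl*, at 72.3 ± 0.497 RPKM, stood above *Rap1b*, at 64.7 ± 4.71, and *Rapgef1*, at 39.1 ± 2.2, stood above *Rap1a*, at 37.5 ± 1.7 (SD, n = 2). The replicates of *Evl* and *Rap1b* were separate there, while those of *Rassf5*, *Rapgef1* and *Rap1a* overlapped.

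**Figure D2:**
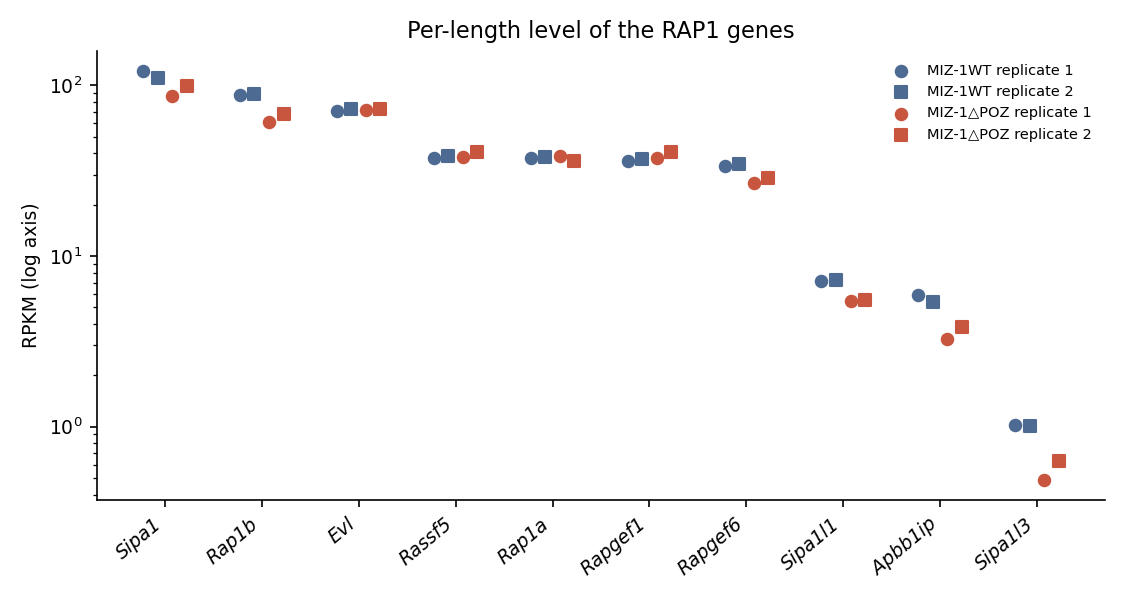
The vertical axis gives the per-length level in RPKM on a log axis for each of the 10 RAP1 genes, ordered by the MIZ-1WT mean. Circles and squares are replicates 1 and 2, blue for MIZ-1WT and red for MIZ-1△POZ. The genes span from 116 RPKM for *Sipa1* to 1.02 RPKM for *Sipa1l3* in MIZ-1WT.

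Promoter sequences were taken from RefSeq (GRCm38.p6), from 250 bases before to 50 bases after the annotated start, and 9 of the 10 genes were matched, all but *Rap1a*. Shown are those of *Rap1b*, *Sipa1l3* and *Apbb1ip*, the 3 genes that passed the test as lower under every alternative in which they were tested. That of *Evl*, whose level differed least from MIZ-1WT among the matched genes, is shown with them. The window of *Rap1b* is chr10:117845925-117846224 on the minus strand, that of *Sipa1l3* is chr7:29505411-29505710 on the minus strand, that of *Apbb1ip* is chr2:22774077-22774376 on the plus strand, and that of *Evl* is chr12:108554470-108554769 on the plus strand. Capitals mark matches on either strand to 4 motifs, the E-box CACGTG, the ETS motif CCGGAAG, the GC box GGGCGG and the cyclic AMP response element (CRE) TGACGTCA.
Rap1b: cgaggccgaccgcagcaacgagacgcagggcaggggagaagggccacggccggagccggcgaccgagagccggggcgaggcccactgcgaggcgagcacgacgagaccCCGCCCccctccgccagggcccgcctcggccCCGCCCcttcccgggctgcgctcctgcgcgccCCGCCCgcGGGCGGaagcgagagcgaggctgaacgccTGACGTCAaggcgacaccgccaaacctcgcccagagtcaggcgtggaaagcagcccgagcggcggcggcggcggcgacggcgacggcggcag
Sipa1l3: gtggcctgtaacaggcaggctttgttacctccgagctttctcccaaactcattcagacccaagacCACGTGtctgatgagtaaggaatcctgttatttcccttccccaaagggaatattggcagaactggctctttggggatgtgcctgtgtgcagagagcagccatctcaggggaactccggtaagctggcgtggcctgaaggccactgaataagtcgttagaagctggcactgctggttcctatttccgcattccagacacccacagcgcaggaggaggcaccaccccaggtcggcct
Apbb1ip: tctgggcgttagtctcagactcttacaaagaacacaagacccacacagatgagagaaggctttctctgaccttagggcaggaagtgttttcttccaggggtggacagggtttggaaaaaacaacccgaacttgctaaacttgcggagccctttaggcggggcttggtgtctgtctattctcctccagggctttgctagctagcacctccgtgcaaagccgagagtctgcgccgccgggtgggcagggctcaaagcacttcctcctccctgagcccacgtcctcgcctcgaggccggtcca
Evl: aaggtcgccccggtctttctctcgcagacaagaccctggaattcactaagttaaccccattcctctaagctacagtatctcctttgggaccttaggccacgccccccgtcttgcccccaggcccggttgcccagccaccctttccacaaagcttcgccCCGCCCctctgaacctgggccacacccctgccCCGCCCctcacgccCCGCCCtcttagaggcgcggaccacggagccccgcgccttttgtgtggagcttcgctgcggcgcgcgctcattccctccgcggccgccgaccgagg

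The 4 windows differed in composition. That of *Rap1b* was 78% G or C with 48 CG dinucleotides, and it held 4 GC boxes and a CRE 42 bases before the start. The *Evl* window was 66.3% G or C with 26 CG dinucleotides and 3 GC boxes, and *Evl* has another RefSeq start further downstream whose window held no match. The *Apbb1ip* window, at 56.7% G or C, held none of the 4 motifs. That of *Sipa1l3*, at 55% with 8 CG dinucleotides, held an E-box 185 bases before the start and no GC box, and it lies inside the longer gene of the GENCODE annotation. The median over all 32851 promoters of the table was 52.7% G or C. Among the 9 matched genes, 7 had a GC box, 2 had an ETS motif (*Rapgef1* and *Rapgef6*), 1 had an E-box and 1 had a CRE. Over all promoters the shares were 35.7% for the GC box, 8.86% for the ETS motif, 7.15% for the E-box and 1.79% for the CRE. These shares count single promoters, while a gene was counted if any of its windows held a match, so the units differ. The second windows of *Sipa1l1* and *Evl* held no GC box. A GC box was present both in genes that fell, such as *Rap1b* and *Sipa1*, and in genes that did not pass the test, such as *Rapgef1* and *Evl*.

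The GTPase itself is made from 2 genes that encode nearly identical proteins. *Rap1b* (ENSMUSG00000052681, minus strand of chr10:117813871-117846035) had 11071 and 10745 counts in MIZ-1WT and 8426 and 8614 in MIZ-1△POZ. These correspond to 254 and 256 CPM in MIZ-1WT and to 177 and 196 CPM in MIZ-1△POZ, so the groups did not overlap. The log2 fold change was -0.45 (standard error, SE, 0.0604, 95% confidence interval -0.60 to -0.30, adjusted p = 0.00402 by edgeR with Benjamini-Hochberg correction). *Rap1a* (ENSMUSG00000068798, minus strand of chr3:105727267-105801336) stood at 97.3 and 98.8 CPM in MIZ-1WT and at 101 and 94.6 CPM in MIZ-1△POZ. The MIZ-1△POZ values of *Rap1a* lay on both sides of the MIZ-1WT values, with a log2 fold change of -0.00 (95% confidence interval -0.13 to 0.12). The transcripts of the 2 genes shared no stretch of 50 bases, while 8.27% of the 50-base stretches of *Rap1a* were also found in another annotated gene, nearly all of them in the pseudogene *Gm9392*, which had between 22 and 34 counts per library.

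Together *Rap1a* and *Rap1b* reached 125 and 127 RPKM in MIZ-1WT and 100 and 104 RPKM in MIZ-1△POZ. *Rap1a* supplied 29.8% and 30% of this level in MIZ-1WT and 38.7% and 34.8% in MIZ-1△POZ. The share was thus 6.85 percentage points higher in MIZ-1△POZ and the groups did not overlap. A two-sided exact permutation test gave p = 0.333, the smallest value that 2 libraries against 2 allow.

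**Figure D3:**
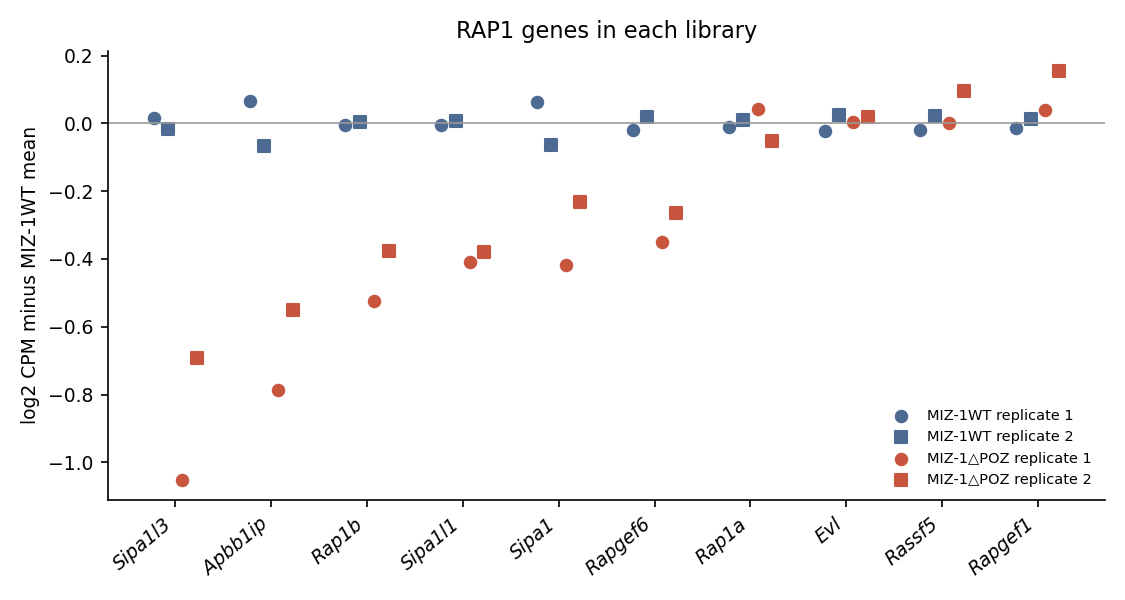
The vertical axis gives log2 CPM of each library minus the MIZ-1WT mean for the 10 RAP1 genes, ordered by fold change. Circles and squares are replicates 1 and 2, blue for MIZ-1WT and red for MIZ-1△POZ. For the 6 genes at the left both MIZ-1△POZ libraries lie below both MIZ-1WT libraries, with MIZ-1△POZ replicate 1 below replicate 2 in each. MIZ-1△POZ replicate 1 also lies below replicate 2 for *Rapgef1*, *Rassf5* and *Evl*.

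Of the 2 GEFs, the one that fell was *Rapgef6* (ENSMUSG00000037533, plus strand of chr11:54522847-54699285), which encodes a PDZ domain GEF for RAP1 and RAP2. Its level was 442 and 454 CPM in MIZ-1WT and 352 and 373 CPM in MIZ-1△POZ, without overlap. The log2 fold change was -0.31 (SE 0.0511, adjusted p = 0.00748, edgeR). *Rapgef1* (ENSMUSG00000039844, plus strand of chr2:29619720-29740978) encodes a GEF recruited by CRK adaptor proteins. It stood at 267 and 272 CPM in MIZ-1WT and at 277 and 300 CPM in MIZ-1△POZ. Both MIZ-1△POZ values were the higher ones, but the log2 fold change of 0.10 (95% confidence interval -0.04 to 0.23) did not pass the test (adjusted p = 0.202, edgeR). Without MIZ-1△POZ replicate 1 it was 0.16 and passed (adjusted p = 0.0442). *Gm9823* on the opposite strand overlaps 327 exonic bases of *Rapgef1*. *Rapgef6* made up 48.4% and 48.6% of the summed RPKM of the 2 GEFs in MIZ-1WT and 41.8% and 41.3% in MIZ-1△POZ (two-sided exact permutation p = 0.333, the smallest possible).

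All 3 GAPs fell. *Sipa1* (ENSMUSG00000056917, minus strand of chr19:5651185-5663707) encodes SPA-1, a RAP1 GAP of lymphoid and other hematopoietic cells. It stood at 536 and 491 CPM in MIZ-1WT and at 384 and 437 CPM in MIZ-1△POZ, the widest spread between replicates relative to its difference among the genes that fell. The log2 fold change was -0.32 (SE 0.0791, adjusted p = 0.0239, edgeR). *Sipa1l1* (ENSMUSG00000042700, plus strand of chr12:82169320-82451786) encodes a GAP of the same family known from the neuronal actin cytoskeleton. Its values were 91.9 and 92.6 CPM in MIZ-1WT and 69.5 and 70.9 CPM in MIZ-1△POZ, tight in both groups, with a log2 fold change of -0.39 (SE 0.047, adjusted p = 0.00289). *Sipa1l3* (ENSMUSG00000030583, minus strand of chr7:29320372-29518641), another member of that family, is known from lens and epithelial cell shape. It fell from 17 and 16.6 CPM to 8.11 and 10.4 CPM, the largest change of the 10 genes (log2 fold change -0.86, SE 0.133, adjusted p = 0.00588), on 741, 698, 386 and 456 counts.

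Summed over the 3 genes, the GAP level was 129 and 119 RPKM in MIZ-1WT and 92.9 and 105 RPKM in MIZ-1△POZ. *Sipa1* supplied 93.4% ± 0.4 of it in MIZ-1WT and 93.9% ± 0.351 in MIZ-1△POZ (SD, n = 2), so the sum followed that gene. The summed GEF level, of *Rapgef1* and *Rapgef6* only, was 70 and 71.7 RPKM in MIZ-1WT and 64.5 and 69.2 RPKM in MIZ-1△POZ. The ratio of this GEF level to this GAP level was 0.541 and 0.601 in MIZ-1WT and 0.694 and 0.659 in MIZ-1△POZ. This ratio was higher in both MIZ-1△POZ libraries (two-sided exact permutation p = 0.333, the smallest possible). It leaves out the other GEFs and GAPs of the wider list below. Among them, the GEF *Rasgrp2* fell from 32.5 and 32.3 RPKM to 15.8 and 16.7 RPKM. The GAP *Rasa3* fell from 97.1 and 100 RPKM to 70 and 72.6 RPKM. The GEF *Dock4* and the GAPs *Rap1gap* and *Rap1gap2* rose. A ratio over more GEFs and GAPs was not tested. All these values are transcript levels, and the nucleotide state of RAP1 was not measured here.

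The 2 effectors of the list behaved differently from each other. *Apbb1ip* (ENSMUSG00000026786, plus strand of chr2:22774094-22875653), which encodes the talin-binding adaptor RIAM, had 43.6 and 39.8 CPM in MIZ-1WT and 24.1 and 28.4 CPM in MIZ-1△POZ. The groups were far apart, with a log2 fold change of -0.67 (SE 0.0984, 95% confidence interval -0.91 to -0.42, adjusted p = 0.00528, edgeR). *Rassf5* (ENSMUSG00000026430, minus strand of chr1:131176410-131245258) stood at 150 and 154 CPM in MIZ-1WT and at 152 and 163 CPM in MIZ-1△POZ. Its groups overlapped, and the log2 fold change was 0.05 (95% confidence interval -0.08 to 0.18). The gene makes a long form and the shorter RAPL form from separate starts, which counts per gene do not separate, and it shares 78 exonic bases with *Eif2d* on the opposite strand. In RPKM, *Rassf5* exceeded *Apbb1ip* 6.39-fold and 7.2-fold in the MIZ-1WT libraries and 11.7-fold and 10.6-fold in the MIZ-1△POZ libraries (two-sided exact permutation p = 0.333, the smallest possible).

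*Evl* (ENSMUSG00000021262, plus strand of chr12:108554720-108688516) encodes an Ena/VASP protein that promotes actin filament growth at sites of adhesion. Its level was 207 and 214 CPM in MIZ-1WT and 211 and 214 CPM in MIZ-1△POZ. The values were interleaved, and the log2 fold change of 0.01 had a 95% confidence interval from -0.10 to 0.12. *Degs2* overlaps *Evl* on the opposite strand over 278 exonic bases but had at most 2 counts in any library.

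The differences were not equally firm under other ways of setting up the comparison. *Rap1b* and *Apbb1ip* passed the test in all 10 alternatives and *Sipa1l3* in all 9 in which it was tested, while *Sipa1l1* passed in 9 of 10, *Rapgef6* in 7 and *Sipa1* in 6. Without MIZ-1WT replicate 1 or 2, *Rapgef6* kept log2 fold changes of -0.33 and -0.29 at adjusted p-values of 0.0506 and 0.0579 (edgeR). *Sipa1* stood at -0.26 and -0.39 in those fits, with adjusted p-values of 0.136 and 0.0563. Each of them has a single control library, and the share of all genes called was 15.5% and 19.7% there, against 40% with all libraries. In all 6 genes that fell, MIZ-1△POZ replicate 1 was lower than replicate 2, by between 0.03 (*Sipa1l1*) and 0.36 (*Sipa1l3*) on the log2 scale. The same direction was seen in *Rapgef1*, *Rassf5* and *Evl*, which did not pass the test, and only *Rap1a* was higher in replicate 1. Of the 10 B cell markers, 1 was higher in MIZ-1△POZ replicate 1 than in replicate 2. Replicate 1 was also the library with the higher summed macrophage marker level, 5478 against 3590 CPM, and the part of this in the results was not tested. When libraries were scaled to the geometric mean of the 10 B cell markers, a choice made after seeing the data, the median of all genes moved to 0.25 and 5.08% of all genes were called lower, 40.3% higher and 45.4% in either direction. *Rap1b* (log2 fold change -0.20, adjusted p = 0.0329), *Sipa1l3* (-0.61, adjusted p = 0.00527) and *Apbb1ip* (-0.41, adjusted p = 0.00907) were then still lower by edgeR's test. *Rapgef6* (-0.05), *Sipa1* (-0.07) and *Sipa1l1* (-0.14) no longer passed, with adjusted p-values of 0.502, 0.454 and 0.144. *Rap1a* (0.25), *Rapgef1* (0.35), *Rassf5* (0.30) and *Evl* (0.27) were called higher on this scale, near the shift of all genes.

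A wider list of 64 genes, which includes the 10, was used to place them within the pathway. It too was chosen with earlier results of these data known, so its counts are a description. Of its 60 genes tested, 23 fell, 12 rose and 25 did not pass, with a median log2 fold change of -0.06. The 50 tested genes outside the 10 gave 17 lower, 12 higher and a median of 0.01, against 18.9% lower and 21.1% higher over all genes. When libraries were scaled to the B cell markers, 7 genes of the wider list were lower and 29 were higher, where 5.08% of all genes were lower and 40.3% higher. The values by gene below are those of TMM scaling. On the B cell marker scale the median of all genes was 0.25, a shift larger than several of the decreases below. At most 7 of the 23 decreases kept their call there, and *Rap1b*, *Sipa1l3* and *Apbb1ip* are 3 of those 7. *Sipa1l1*, at -0.39 under TMM scaling, was at -0.14 there and did not pass. Most decreases below therefore did not keep their call on that scale, and this is not limited to the smallest ones. Without MIZ-1WT replicate 1 the whole list gave 17 calls, where 15.5% of all genes were called, and without MIZ-1WT replicate 2 it gave 20, where 19.7% of all genes were called.

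**Figure D4:**
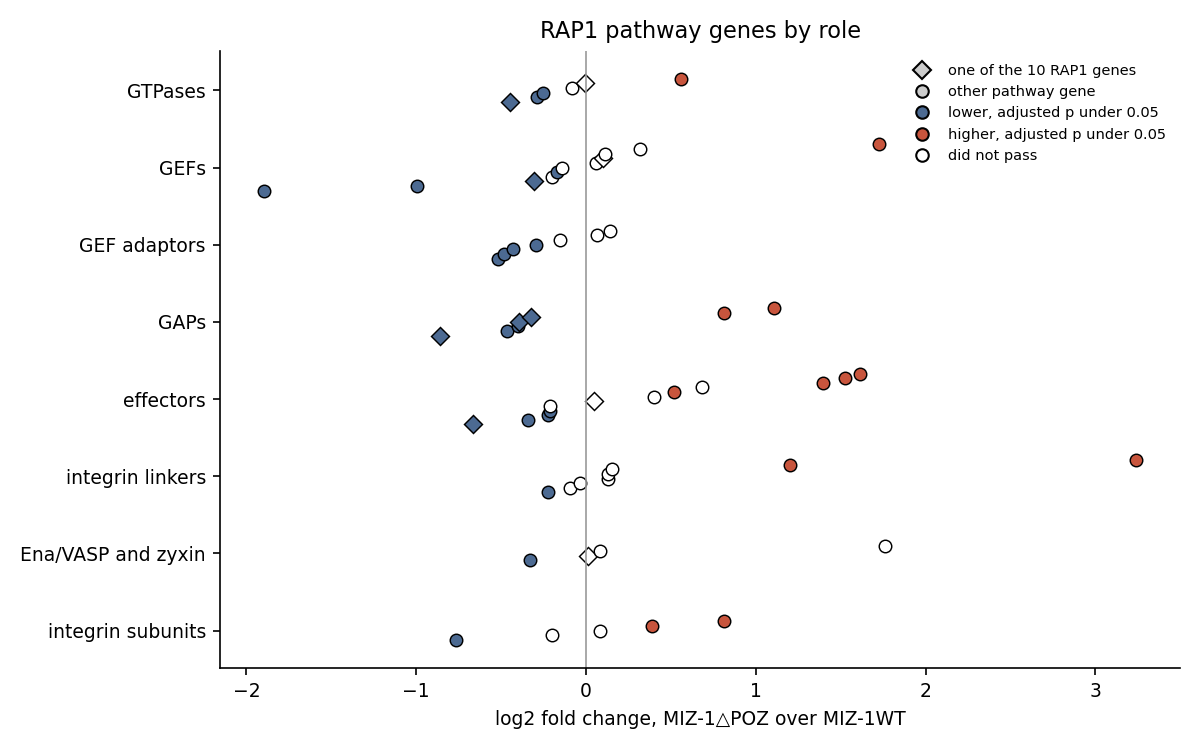
The horizontal axis gives the log2 fold change of MIZ-1△POZ over MIZ-1WT for the 60 tested genes of the wider RAP1 list, in rows by role. Diamonds are the 10 RAP1 genes and circles the others, blue where lower and red where higher at an adjusted p under 0.05, and white where the test was not passed. All 7 GAPs are coloured, 5 lower and 2 higher, and integrin subunits appear on both sides of 0. Over all genes tested, 40% were called in either direction.

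The counts by role below are to be read beside the shares of all genes tested, 18.9% lower, 21.1% higher and 40% in either direction. Among the GEFs, 4 of 11 fell and 1 rose. *Rasgrp2*, which encodes CalDAG-GEFI, a calcium and diacylglycerol responsive GEF for RAP1, fell from 402 and 400 CPM to 196 and 207 CPM (log2 fold change -0.99, adjusted p = 0.000739, edgeR). The log2 fold change was larger in size than that of *Rapgef6* or *Rapgef1*. *Rapgefl1* fell at a low level, from 54 and 41 counts to 13 and 14 (log2 fold change -1.90), and *Rasgrp1*, mainly a RAS GEF, fell by 0.17 on the log2 scale. *Dock4*, an exchange factor linked to RAP1 and RAC, rose from 3.99 and 3.95 CPM to 14.9 and 11.3 CPM (log2 fold change 1.72). The adaptors, proteins such as CRK that bring RAPGEF1 to activated receptors and their partners, gave 4 lower and 0 higher of 7 tested, *Crk* (log2 fold change -0.43), *Crkl* (-0.30), *Sh2d3c* (-0.48) and *Cblb* (-0.52), the last a ubiquitin ligase that binds CRKL.

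All 7 GAPs of the wider list were called, in both directions, where 40% of all genes tested were called. Alongside the 3 SIPA1 family members, the fourth, *Sipa1l2*, fell from 55.6 and 55.1 CPM to 40.8 and 42.8 CPM (log2 fold change -0.40, adjusted p = 0.00435, edgeR). *Rasa3*, which acts on both RAS and RAP1, fell from 495 and 510 CPM to 357 and 370 CPM (log2 fold change -0.47, adjusted p = 0.002). *Rap1gap* and *Rap1gap2*, which encode GAPs of a separate family, rose instead. *Rap1gap* went from 11 and 10.9 CPM to 18 and 20.5 CPM (log2 fold change 0.81), and *Rap1gap2* from 17.1 and 19.4 CPM to 43.1 and 35.5 CPM (log2 fold change 1.11), with the higher *Rap1gap2* value in MIZ-1△POZ replicate 1. Of the other GTPases, *Rap2a* rose (log2 fold change 0.56) and *Rap2b* (-0.29) and *Rap2c* (-0.26) fell.

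Effectors were divided, with 4 lower, 4 higher and 4 not called of 12 tested, where 18.9% of all genes were lower and 21.1% higher. *Stk4*, which encodes the MST1 kinase that acts with RAPL, fell from 454 and 460 CPM to 358 and 365 CPM (log2 fold change -0.34, adjusted p = 0.0037, edgeR). *Mob1a*, a partner of that kinase, fell by 0.21 on the log2 scale and *Krit1*, a RAP1 effector of endothelial junctions, fell by 0.23. *Raph1*, which encodes lamellipodin, the relative of RIAM, rose from 63 and 72 counts to 175 and 204 (log2 fold change 1.40), in the opposite direction to *Apbb1ip*. *Afdn* (0.52), *Rasip1* (1.53) and *Arap3* (1.62) also rose, all below 7 CPM in every library.

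Among the linkers between RAP1 effectors and integrins, 2 of 8 tested rose and 1 fell, near the shares of all genes (21.1% higher and 18.9% lower). *Fyb*, which encodes the adaptor ADAP, rose from 8.57 and 8.49 CPM to 22.2 and 17 CPM (log2 fold change 1.2, adjusted p = 0.00285, edgeR). *Tln2* rose on only 2 and 3 counts against 36 and 17, while *Vcl*, encoding vinculin, fell by 0.23 on the log2 scale. *Tln1*, which encodes the main talin of leukocytes, stood at 625 and 657 CPM in MIZ-1WT and 669 and 732 CPM in MIZ-1△POZ, and *Fermt3*, encoding kindlin-3, at 291 and 302 against 329 and 320 CPM. Neither passed the test (adjusted p = 0.158 and 0.0704, edgeR), and both were named after their values were seen. In the class of *Evl*, *Zyx*, encoding zyxin, fell by 0.33 on the log2 scale and *Vasp* and *Enah* did not pass.

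The integrin subunits themselves moved in both directions. *Itgb7*, the partner of alpha4 in gut homing, fell from 251 and 254 CPM to 141 and 157 CPM (log2 fold change -0.76, adjusted p = 0.00129, edgeR). *Itgb1* rose from 97 and 106 CPM to 195 and 160 CPM (log2 fold change 0.81), and *Itgb2*, the common chain of the leukocyte integrins, from 159 and 164 CPM to 225 and 196 CPM (log2 fold change 0.39). Both were higher in MIZ-1△POZ replicate 1 than in replicate 2, as were 15 of the 16 macrophage markers, all but *Lyz2* (112 against 225 CPM), and integrin beta chains are also made by macrophages. Of the other genes of the wider list that rose, *Dock4*, *Rap1gap2*, *Afdn*, *Rasip1*, *Arap3*, *Fyb* and *Tln2* were also higher in MIZ-1△POZ replicate 1. *Rap2a*, *Rap1gap* and *Raph1* rose and were lower in replicate 1 than in replicate 2. The share of the reads of any of these genes that came from macrophages was not tested. *Itgal* and *Itga4*, which complete the list, did not pass the test, with log2 fold changes of 0.08 and -0.20.

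Several of these genes share exonic bases with a gene on the opposite strand, among them *Rasgrp2*, *Sh2d3c*, *Fyb*, *Vcl*, *Zyx* and *Rap2b*. The strand setting of the counting is not given in the sources used here, so their values are less certain than those of *Rap1b*, *Rapgef6*, *Sipa1* and *Sipa1l1*, which overlap no other gene and share no 50-base stretch with one. For *Sipa1l3* and *Apbb1ip* the stretches shared with other genes were 1.14% and 0.095%.

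The genes whose centred log2 CPM over the 4 libraries lay nearest to that of *Sipa1l1*, the RAP1 gene with the smallest p, were *Stk25* (Euclidean distance 0.0164 on the log2 scale), *Tubgcp3* (0.0203) and *Aff4* (0.0231), among 8860 genes with a mean of at least 10 CPM. *Stk25* stood at 96.1 and 95.8 CPM in MIZ-1WT and at 72.6 and 74.5 CPM in MIZ-1△POZ. Nearest to *Rapgef1*, which had the smallest p among the members with a positive fold change, were *Nprl3* (0.013), *Hnrnpa0* (0.0134) and *Zfp106* (0.0169). With 4 libraries many genes have a like profile, and 46 genes lay within a distance of *Sipa1l1* that was double that of *Aff4*.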

How the data were processed

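RNA-seq libraries of B220+ splenocytes, 2 biological replicates of each genotype, were depleted of ribosomal RNA, prepared with a stranded kit and sequenced as read pairs. Reads were trimmed by the authors, aligned to GRCm38 (mm10) with TopHat2 (version 2.1.0 in the submitters' processing notes), counted them per Ensembl gene with HTSeq and deposited the raw counts. The strand setting and the Ensembl release are not given in the sources used here. The 5 HTSeq summary lines were left out (no feature 21.1% to 27.2%, not unique 42.8% to 44.1%, ambiguous 0.281% to 0.302% of reads in the table).

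Gene IDs were matched to GENCODE M21 symbols and union exon lengths for 40340 of 41214 genes. Genes reaching 10 counts in 2 or more libraries were tested with edgeR 4.0.16 in R 4.3.3 (TMM, quasi-likelihood test without a covariate, Benjamini-Hochberg adjustment over 14554 genes, threshold 0.05). The procedures were also run on simulated counts in which few genes changed. Many genes were called in the data here, so that run does not test the choice of scaling. Ratios of levels were compared by two-sided exact permutation tests over libraries. Alternatives were DESeq2 size factors, the Wald test of DESeq2 1.42.0, no filter on counts, a filter at a mean of 30 RPM, a replicate block, leaving out each replicate, and a scaling to 10 B cell markers that was added after seeing the data. The 10 genes, the wider list and the marker lists were chosen with earlier results of these data known. All 10 genes were named. From the wider list, genes past the threshold were named, at most 5 per role and direction by smallest p, together with the 3 genes of nearest profile to the RAP1 gene of smallest p in each direction. Promoter sequences are from RefSeq.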

Additional observations from a re-analysis of the deposited data

How the results depend on the processing

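The 6 calls among the 10 RAP1 genes were kept under DESeq2 size factors, the Wald test of DESeq2, no filter on counts and the replicate block, in which 40%, 34.8%, 28.3% and 32.5% of all genes were called. Over all alternatives and the 10 genes, 82 values kept direction and side of the threshold, 8 lost the call, 4 gained one and 5 changed sign. With a filter at a mean of 30 RPM, which kept 6052 genes and dropped *Sipa1l3*, *Sipa1* was at -0.25 (adjusted p = 0.062, edgeR), the median of the 9 genes left was -0.23, and 20 genes of the wider list were called, 14 lower and 6 higher, where 45.4% of all genes were called and 21.2% were lower. Scaled to the 10 B cell markers, 3 of the RAP1 genes were lower and 4 higher, and their median was -0.062. The wider list gave 7 lower and 29 higher on that scale, where 5.08% of all genes were lower and 40.3% higher. *Rap1a* turned from -0.00 to 0.25 there and passed. The other 4 changes of sign were in values near 0 that did not pass, *Rap1a* at 0.0715 with the 30 RPM filter, at 0.0038 without MIZ-1WT replicate 2 and at 0.0602 without MIZ-1△POZ replicate 2, and *Evl* at -0.0137 without MIZ-1WT replicate 1. With 1 library left out the values ranged from -0.0426 to 0.0602 for *Rap1a* and from -0.0137 to 0.0333 for *Evl*. Leaving out 1 library at a time gave 4 to 7 calls among the RAP1 genes (4 to 6 lower, 0 to 1 higher), a median from -0.36 to -0.24, 17 to 36 calls in the wider list (11 to 23 lower, 6 to 13 higher), with 15.5% to 39.5% of all genes called and 5.9% to 18.6% lower, a difference of 4.91 to 8.79 percentage points in the *Rap1a* share, and a difference of 0.171 to 0.323 in the log2 ratio of GEF to GAP level (0.247 with all libraries). In these fits 1 genotype has a single library, which is assumed to vary like the other genotype. With the replicate number as a block, 6 RAP1 genes and 30 genes of the wider list were called, where 32.5% of all genes were called and 14.4% were lower. The labels do not say that equal numbers share an animal, litter or day, and the deviations of same-numbered libraries correlated at -0.07 over 14554 genes. Only 2 libraries per genotype limit the precision, and low genes such as *Rapgefl1*, *Rasip1* and *Tln2* rest on few counts.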
